A study of Homo sapiens with 2 samples.

Results

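A-to-G mismatches were measured in the transcripts of the 7 genes MCM2, MCM3, MCM4, MCM5, MCM6, MCM7 and PCNA. The cells, of the human embryonic kidney line HEK-293T, carried a CIRTS-hADAR biosensor and were sequenced in the ABA condition (1 library) and in the no ABA condition (1 library). CIRTS is an engineered RNA-targeting system, ABA is the small molecule that switches it, and hADAR is a human adenosine deaminase, whose product inosine is read as G. The biosensor is named for both libraries, the design text gives 1 biological replicate, and the dose and time of ABA are not given in the sources used here. Members were all A positions listed on the transcript strand between fixed hg19 boundaries of the 7 genes, with T-to-C on the minus strand read as A-to-G. There were 4636 such positions among 3510746 nuclear positions in the ABA library, and 4719 among 4070751 in the no ABA library. Nuclear means chromosomes 1 to 22 and X. With 1 library per condition no difference between conditions could be checked against replicates. Intervals, at 95%, hold the counting error of these libraries alone, and a p-value compares the libraries and not the conditions.

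MCM2 to MCM7 are the subunits of the ring-shaped helicase that is loaded on origins before S phase and unwinds DNA at the replication fork. PCNA is the sliding clamp that holds DNA polymerases on the template and serves as a docking platform for replication and repair factors. Genes of this group are classical targets of E2F transcription factors, which drive them together as cells enter S phase, and a continuously dividing line such as HEK-293T transcribes them.

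Letters of the kind E2F factors are known to bind were looked for in the RefSeq promoter windows (GRCh38.p14, 300 bases each, from 250 before to 50 after a gene start). Both strands were searched for 4 spellings of the E2F-type motif, TTTCCCGC, TTTCGCGC, TTTGCCGC and TTTGGCGC. Of the 7 symbols 5 had windows in the table, with 8 windows in all. Of these 8 windows 5 held a match, 1 for each symbol, and 3.31% of all 35116 windows held one. The stretches of 30 bases are given 5′ to 3′ on the gene's strand with motif bases in capitals. They show the matches behind this count, and the mismatch rule did not use them.
MCM2 chr3:127598404-127598433 (+): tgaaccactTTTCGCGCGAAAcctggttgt
MCM3 chr6:52284898-52284927 (-): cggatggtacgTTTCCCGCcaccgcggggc
MCM3 chr6:52284728-52284757 (-): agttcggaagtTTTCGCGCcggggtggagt
MCM6 chr2:135876575-135876604 (-): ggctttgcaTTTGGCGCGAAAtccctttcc
MCM6 chr2:135876513-135876542 (-): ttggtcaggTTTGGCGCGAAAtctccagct
MCM7 chr7:100101566-100101595 (-): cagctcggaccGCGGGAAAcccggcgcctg
MCM7 chr7:100101388-100101417 (-): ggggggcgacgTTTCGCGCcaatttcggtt
PCNA chr20:5126663-5126692 (-): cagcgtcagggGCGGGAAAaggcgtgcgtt
In MCM2 and in both MCM6 stretches 2 motifs, 1 on each strand, overlap in the capitals. In MCM7 1 of 3 windows had matches, and in PCNA 1 of 2. A match describes letters and is not a measured site, and no position in these windows was compared with the RNA, whose coordinates are of another build.

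The 7 transcripts were covered more deeply than most listed positions. Median depth over their positions was 24 reads with ABA and 22 without ABA, against a nuclear median of 10 in both libraries. Together they held 115461 base reads with ABA and 108400 without ABA, and 0 of their positions had an edited share of 35% or more in either library, the level at which a position was taken as variant-like. Unless stated, all nuclear rates below leave out the 1162 variant-like positions. On the opposite strand of the 7 intervals 2 positions with 12 reads were listed with ABA and 19 positions with 141 reads without ABA, with 0 G reads in each.

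Listed positions outlined where along each gene A positions had enough reads to be listed. Listed positions of MCM2 (chromosome 3, 127317200 to 127341278, plus strand) began 1001 nt inside the 5′ boundary, and those of MCM4 (chromosome 8, 48872763 to 48890719, plus) 960 nt inside. MCM5 (chromosome 22, 35796116 to 35820495, plus) began 316 nt inside. MCM3 (chromosome 6, 52128812 to 52149582, minus), MCM6 (chromosome 2, 136597196 to 136634047, minus) and MCM7 (chromosome 7, 99690404 to 99699427, minus) began 103, 129 and 474 nt inside. PCNA (chromosome 20, 5095599 to 5107268, minus) differed, since its first listed position lay 6727 nt inside the 5′ boundary, so the upstream part of its interval had no listed position in either library. At the 3′ ends the outermost listed positions came within 5 to 42 nt of the boundary for 6 genes and within 244 nt for MCM6. Positions were grouped in blocks, runs of positions listed in both libraries at most 100 nt apart with at least 200 reads in each, which gave 16 blocks each for MCM3 and MCM6, 15 each for MCM2 and MCM5, 13 for MCM4, 12 for MCM7 and 4 for PCNA.

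In the rates, reads are base reads, so 1 sequenced read counts at each listed A it covers, and the intervals treat these counts as independent. The rate of A-to-G mismatches, G reads over A plus G reads, was 0.100% (0.0830 to 0.121) with ABA over the 7 genes, from 116 of 115441 reads, and 0.0535% (0.0406 to 0.0692) without ABA, from 58 of 108386 reads. The ratio was 1.88 (1.36 to 2.62). Nuclear RNA as a whole had 0.0776% with ABA and 0.0386% without ABA, and its ratio of 2.01 (1.97 to 2.05) lies inside the interval of the 7 genes. Nuclear rates rose with depth, with ABA for instance 0.0521% at 6 to under 10 reads and 0.225% at 50 reads or more, so rates were also taken at positions with at least 20 reads, where the nuclear values were 0.118% with ABA and 0.0621% without ABA, a ratio of 1.90, and the 7 genes had a ratio of 1.95 (1.36 to 2.83). At 20 to under 50 reads the 7 genes had 0.107% (0.0865 to 0.131) with ABA, against 0.0916% over nuclear positions. Without ABA they had 0.0520% (0.0371 to 0.0708) against 0.0494%. At 50 reads or more they had 0.114% (0.0418 to 0.248) against 0.225% with ABA. Without ABA that class had 0.105% (0.0340 to 0.244) against 0.122%. Each of these member intervals contains the nuclear value. No difference between these replication genes and nuclear RNA as a whole was detectable in the ratio.

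Other changes at the same positions were rarer in both libraries. A-to-C reads numbered 14 with ABA and 10 without ABA, 0.0121% (0.00664 to 0.0204) and 0.00923% (0.00443 to 0.0170), a ratio of 1.32 (0.543 to 3.31). A-to-T reads numbered 2 with ABA and 4 without ABA. In these genes the interval of the A-to-C ratio spans both 1 and the A-to-G ratio, so at this depth it does not set them apart. Over all nuclear positions the A-to-C ratio was 1.21 (1.15 to 1.27) and the A-to-T ratio was 1.07 (1.01 to 1.14). Both of these intervals lie wholly below the nuclear A-to-G interval of 1.97 to 2.05.

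**Figure D1:**
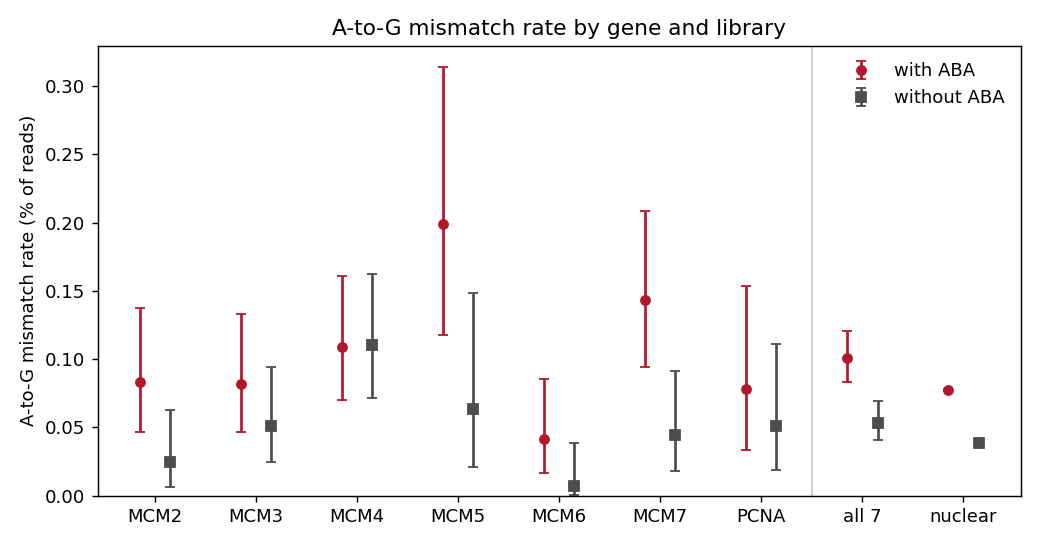
A-to-G mismatch rate in percent of reads for each gene, for all 7 genes together and for all nuclear positions, with ABA (circles) and without ABA (squares); bars are 95% Clopper-Pearson intervals of counting error. In 6 genes the circle lies above the square, and MCM4 had 0.109% with ABA and 0.110% without ABA.

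The gate subunits MCM2 and MCM5, between which the ring opens to take in DNA, both had higher rates with ABA. So did all other members but MCM4, and nuclear RNA as a whole. MCM2, which also binds histones, had 15 of 17956 reads, 0.0835% (0.0468 to 0.138), with ABA and 4 of 16332, 0.0245% (0.00667 to 0.0627), without ABA. Its ratio was 3.41 (1.09 to 14.1). MCM5 had the highest rate of the 7 genes with ABA, 18 of 9061 reads or 0.199% (0.118 to 0.314), against 5 of 7852 or 0.0637% (0.0207 to 0.149) without ABA. Its ratio was 3.12 (1.12 to 10.7). Both lower bounds lie close to 1, and both intervals contain the nuclear ratio of 2.01. Without position 127335896, 1 of 2 in MCM2 with 2 G reads over both libraries, the interval was 0.913 to 12.4, and without position 35796463, 1 of 3 such in MCM5, it was 0.970 to 9.67, so both then included 1. At positions with at least 20 reads MCM2 had 0.816 to 11.1. MCM5 was the least covered member, with a median of 17 reads with ABA and 15 without ABA.

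MCM3, the subunit through which the yeast ring is brought to its loading factors, differed less between the libraries. It had 16 of 19484 reads, 0.0821% (0.0469 to 0.133), with ABA and 10 of 19490, 0.0513% (0.0246 to 0.0943), without ABA, a ratio of 1.60 (0.683 to 3.95). The interval includes 1 and 2.01, so neither an equal rate nor the nuclear ratio is set aside at this depth.

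MCM4, MCM6 and MCM7 form a subcomplex with helicase activity of its own in vitro, and their mismatch values spread widely. MCM7, whose gene also hosts an intronic microRNA cluster, had 27 of 18851 reads, 0.143% (0.0944 to 0.208), with ABA and 7 of 15831, 0.0442% (0.0178 to 0.0911), without ABA. Its ratio of 3.24 (1.38 to 8.81) had the highest lower bound of the 7 genes. MCM6 had the lowest rates, 7 of 16844 reads or 0.0416% (0.0167 to 0.0856) with ABA and 1 of 14391 or 0.00695% (0.000176 to 0.0387) without ABA. With 1 read in the no ABA library its ratio of 5.98 (0.768 to 270) is hardly determined.

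MCM4 had as many G reads with ABA as without. Its rate was 0.109% (0.0704 to 0.161) with ABA, 25 of 22972 reads, and 0.110% (0.0712 to 0.162) without ABA, 25 of 22711 reads. The ratio of 0.989 (0.545 to 1.79) was the only one of the 7 whose interval lay wholly below the nuclear 2.01. It did not hold without 1 position, described below, where the ratio was 1.15 (0.585 to 2.30), nor at positions with at least 20 reads, where that position was kept and the ratio was 1.26 (0.656 to 2.47). With variant-like positions kept the nuclear ratio was 1.70 (1.68 to 1.73), which lies inside the main MCM4 interval. MCM4 also had the highest rate of the 7 genes without ABA. Pooled without MCM4 the other 6 genes had a ratio of 2.55 (1.70 to 3.93), against 1.67 (1.17 to 2.41) without MCM7, the lowest of the values with 1 gene left out.

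PCNA had 8 of 10273 reads, 0.0779% (0.0336 to 0.153), with ABA and 6 of 11779, 0.0509% (0.0187 to 0.111), without ABA. Its ratio of 1.53 (0.465 to 5.35) is undetermined at this depth. The 7 intervals were not adjusted for their number. Those of MCM2, MCM5 and MCM7 lay above 1, as did the nuclear one, and of these MCM7 alone stayed above 1 under each alternative tried for single genes. No share of all genes with such an interval was computed, since genes other than the 7 were not delimited here.

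**Figure D2:**
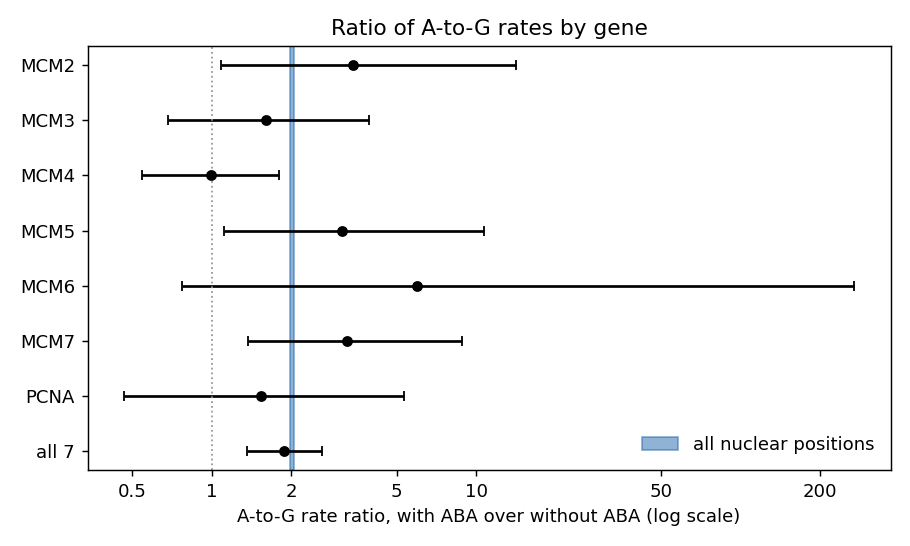
Ratio of the A-to-G rate with ABA to that without ABA on a log axis, for each gene and all 7 together; bars are exact conditional 95% intervals and the blue band is the nuclear interval of 1.97 to 2.05. All intervals but that of MCM4, which ends at 1.79, reach the band.

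The G reads were scattered, mostly 1 to a position. G reads were found at 105 positions with ABA, 2.26% of those listed, and at 51 without ABA, 1.08%, against 0.880% and 0.452% of nuclear positions, which were shallower. Of the 105 positions 97 had a single G read, and of the 51 positions 49 had a single one. Counting positions with any G read, MCM7 had 25 with ABA and 7 without ABA, MCM4 20 and 18, MCM5 16 and 5, MCM3 15 and 10, and MCM2 14 and 4. PCNA had 8 with ABA and 6 without ABA, and MCM6 had 7 and 1. G reads in both libraries were found at 5 positions, 4.76% of the 105 and 9.80% of the 51, a share not computed for nuclear RNA. Of the 5, 3 lay in MCM4. The other 2 had 1 G read in each library, MCM2 at 127338044 (1 of 35 reads with ABA, 1 of 27 without ABA) and MCM5 at 35799250.

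The position with most G reads in either library was in MCM4 at chromosome 8, 48890109 (plus strand, as numbered in the files). It had 4 of 25 reads, 16.0% (4.54 to 36.1), with ABA and 7 of 31, 22.6% (9.59 to 41.1), without ABA, and these intervals overlap widely. It was the only member position with at least 20 reads and a share of 10% or more, which was not counted over nuclear positions. It lies 568 nt before the last listed position of the gene, in the last block of MCM4, which runs from 48889248 over 1384 nt, the longest block of the 7 genes.

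The other MCM4 positions with G reads in both libraries were in the same block, which was singled out after its values were seen. Position 48889410 had 1 of 25 reads with ABA and 1 of 32 without ABA, and 48890247 had 1 of 22 and 1 of 19. Position 48889633 had 0 of 6 reads with ABA and 2 of 7 (28.6%, 3.67 to 71.0) without ABA. From 48889248 on, MCM4 had 12 of 6286 reads, 0.191% (0.0987 to 0.333), with ABA and 17 of 7651, 0.222% (0.129 to 0.356), without ABA. The rest of the gene had 0.0779% (0.0415 to 0.133) with ABA and 0.0531% (0.0229 to 0.105) without ABA, a ratio of 1.47 (0.563 to 4.08). Left without position 48890109, the stretch from 48889248 on still had 8 and 10 G reads, 0.128% (0.0552 to 0.252) with ABA and 0.131% (0.0629 to 0.241) without ABA.

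**Figure D3:**
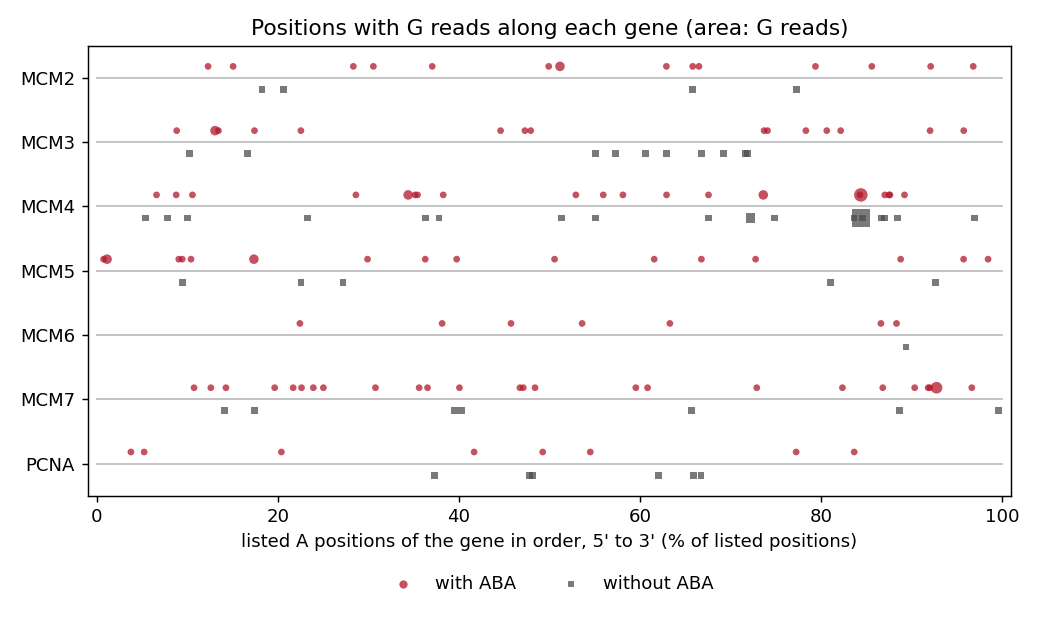
Positions with G reads along each gene, in the order of the listed A positions from 5′ to 3′ in percent of those listed, with ABA (circles above the line) and without ABA (squares below); marker area is proportional to the number of G reads. Single reads are spread along all genes, and the largest markers in both libraries share 1 place near the 3′ end of MCM4.

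No single position changed past the test. Two-sided Fisher's exact tests were run on the 359090 nuclear positions that reached 20 reads in each library, with Benjamini-Hochberg adjustment over all of them. A call needed an adjusted p below 0.05 and a shift of 10 percentage points or more, and 0 positions were raised (0%) and 0 lowered (0%). Of the 2459 member positions tested, 0 had an unadjusted exact p under 0.05 (0.0181% of all positions did), 0 were higher with ABA by 10 points (0.0234%) and 0 were lower by 10 points (0.00167%). Shares were higher with ABA at 75 member positions, 3.05%, and lower at 36, 1.46%. Over all nuclear positions tested, variant-like ones left out, 3.29% were higher and 1.87% lower. The members' shares are thus near those of nuclear RNA. With mostly 1 G read to a position, a change of the size of the pooled ratio could hardly have been called at 1 site.

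The position with the lowest p among the members was in MCM3, with an unadjusted exact p of 0.223 and an adjusted p of 1, at 52146923 on chromosome 6. It had 2 of 39 reads (5.13%, 0.627 to 17.3) with ABA and 0 of 43 without ABA, which allows up to 8.22%. Rises and falls are ranked among member positions with at least 20 reads in each library. The largest rise in points was 9.52, in MCM4 at 48889672, with 2 of 21 reads with ABA and 0 of 22 without ABA. The largest fall in points on the same terms, at -6.58, was at the MCM4 position 48890109. In MCM7 the largest rise was at 99690631, 222 nt before the last listed position, with 3 of 40 reads (7.50%, 1.57 to 20.4) with ABA and 0 of 29 without ABA.

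For the gate subunits the largest rises at that depth rested on 2 reads each. MCM5 at 35796463, near its 5′ end, had 2 of 24 reads with ABA and 0 of 25 without ABA, and MCM2 at 127335896 had 2 of 29 with ABA and 0 of 22 without ABA. In PCNA (5100408) and MCM6 (136598396) the largest rises were of 1 read, 1 of 22 with ABA and 0 of 24 without ABA, and 1 of 23 with ABA and 0 of 20 without ABA. Falls outside MCM4 and MCM5 were likewise single reads lost. In MCM2 position 127325024 had 0 of 39 reads with ABA and 1 of 26 without ABA. In MCM3 position 52137175 had 0 of 20 with ABA and 1 of 22 without ABA. MCM7 at 99695808 had 0 of 29 with ABA and 1 of 27 without ABA, MCM6 at 136598293 had 0 of 22 with ABA and 1 of 26 without ABA, and PCNA at 5096108 had 0 of 42 with ABA and 1 of 44 without ABA. The MCM5 fall was at 35799250, with 1 of 26 reads with ABA and 1 of 20 without ABA. Differences of 1 or 2 reads at these depths cannot be told from counting error.

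Pooling reads over blocks did not single out a part of any member. Member blocks held few G reads, so a change of the size of the pooled ratio could hardly have been called in 1 block. Of 43870 nuclear blocks 6 were raised at an adjusted exact p under 0.05 (0.0137%) and 0 lowered (0%), and of the 91 member blocks 0 were raised and 0 lowered. None of the 91 had an unadjusted exact p under 0.05, which 0.568% of all blocks had. The lowest was 0.0639 (adjusted p of 1), for the MCM3 block of 750 nt starting at 52128831, its 3′-most, with 5 of 4661 reads with ABA and 0 of 4225 without ABA. With ABA the rate was higher in 45 of the 91 blocks, 49.5%, lower in 16, 17.6%, and 30 had no G read. Among all nuclear blocks 26.9% were higher and 12.9% lower, at a median of 479 reads per block with ABA and 493 without ABA, against 984 and 889 in member blocks. By gene, MCM7 had 9 blocks higher and 0 lower, MCM6 6 and 0, MCM5 9 and 3, and MCM2 7 and 2. MCM3 had 6 higher and 5 lower, MCM4 5 and 5, and PCNA 3 and 1. The 3′-most MCM7 block reaches a little past the boundary of the gene.

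Along the transcripts the rates were compared in 3 equal segments of the listed positions. Pooled over the genes, the 5′ segment had a ratio of 2.52 (1.30 to 5.17), the middle segment 2.01 (1.12 to 3.73) and the 3′ segment 1.50 (0.902 to 2.54). These intervals overlap, and no order of the segments is set by them. The 3′ segment held 41 G reads with ABA and 27 without ABA, of which 12 and 17 were from MCM4. MCM7 had 9, 8 and 10 G reads from 5′ to 3′ with ABA and 2, 3 and 2 without ABA, so its higher rate was not drawn from 1 end. Mean depth from 5′ to 3′ was 25.3, 26.6 and 22.7 reads with ABA and 22.9, 24.8 and 21.2 without ABA.

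The base next to a mismatched A is known to matter for ADAR enzymes, and neighbouring A bases can be read from the positions the files list. Over all nuclear positions the ratio was 2.50 (2.42 to 2.60) where only the 5′ neighbour was a listed A and 1.36 (1.30 to 1.42) where only the 3′ neighbour was. In the 7 genes these ratios were 1.83 (0.842 to 4.19), from 21 reads with ABA and 11 without ABA, and 1.78 (0.659 to 5.26), from 13 and 7 reads. Where no neighbour was a listed A, which held for 57.8% of member positions and 50.1% of nuclear positions, the ratio was 1.94 (1.29 to 2.97) in the members and 2.09 (2.04 to 2.15) over nuclear RNA. The member intervals contain both nuclear neighbour values, so a difference between the neighbours was not detectable in these genes at this depth. The bases other than A were not read, since a genome of the files' build was not used here.

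Read depth served as a measure of transcript level, taken at positions that both libraries list and given in base reads per 1000000 nuclear ones. In bulk RNA, fewer cells of a type and less RNA per cell cannot be told apart. MCM7 had 470 with ABA and 385 without ABA, a ratio of 1.22 (1.20 to 1.25), and MCM6 had 419 and 345, a ratio of 1.21 (1.19 to 1.24). MCM5 followed with 221 and 191, 1.16 (1.13 to 1.20), and MCM2 with 448 and 395, 1.13 (1.11 to 1.16). MCM4 had 572 and 535, 1.07 (1.05 to 1.09), and MCM3 had 486 and 471, 1.03 (1.01 to 1.05). PCNA alone was lower with ABA, at 257 against 282 without ABA, a ratio of 0.911 (0.887 to 0.935). All these intervals are too narrow, since 1 read covers several positions.

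In the genes with the larger depth ratios most blocks, though all of them only in MCM7, were deeper with ABA. Depth was higher with ABA in 12 of 12 blocks of MCM7, 14 of 16 of MCM6, 14 of 15 of MCM2, 13 of 15 of MCM5, 10 of 13 of MCM4, 9 of 16 of MCM3 and 0 of 4 of PCNA. Of all nuclear blocks 51.2% were higher, against 72 of the 91 member blocks, and blocks of 1 gene share its transcripts. Single nuclear blocks, mostly shallower than whole genes, had ratios of 0.716 to 1.38 from the 5th to the 95th percentile, and the spread of whole-gene ratios over other genes was not measured. With only positions that had 20 reads or more in each library the MCM3 ratio was 0.960 (0.937 to 0.983), on the other side of 1, and the MCM5 ratio was 1.04 (0.985 to 1.09), which includes 1. Over all positions listed in each library that of PCNA was 0.985 (0.960 to 1.01). Mean depth per listed A position, a level per length, was highest in MCM7 (34.98 reads with ABA, 29.5 without ABA) and PCNA (32.1 and 34.3) and lowest in MCM5 (17.6 and 16.0). The other 4 genes had 21.5 to 25.4 reads with ABA and 17.8 to 25.1 without ABA, and without replicates their order has no measured spread.

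**Figure D4:**
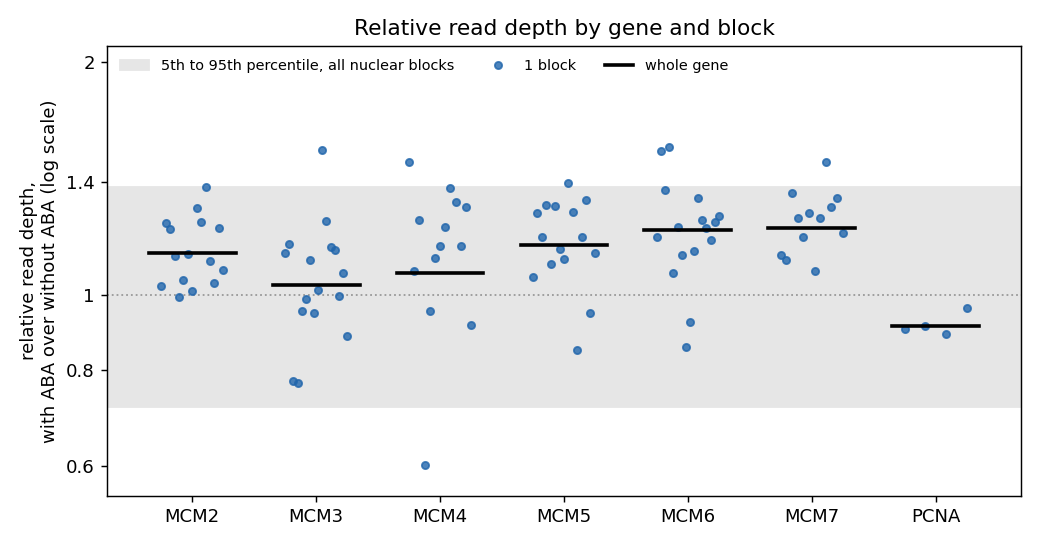
Read depth with ABA relative to without ABA on a log axis, for each block (points, in genome order) and each whole gene (bars); the grey band is the 5th to 95th percentile of all nuclear blocks, 0.716 to 1.38. The 12 blocks of MCM7 lie above 1 and the 4 blocks of PCNA below it.

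The genes with higher depth ratios and those with higher mismatch ratios were in part the same, since MCM7, MCM6, MCM5 and MCM2 had the 4 highest values of both, the mismatch interval of MCM6 including 1. With only positions that reached 20 reads in each library, the depth ratio of MCM4, 1.06, was above that of MCM5, 1.04, and the 4 were no longer the same. This is a description of 7 genes in 1 pair of libraries. Both ratios come from the same reads, and only the depth ratio is divided by nuclear base reads. The part of depth in the mismatch ratios was not tested.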

How the data were processed

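The authors deposited, for each library, raw counts of each base at listed positions, 1 file per strand. Per the file headers a read cutoff of 5 per base was used, and the lowest depth found is 6. The submitters' processing notes name cutadapt, HISAT2 and hg19. The base counter, duplicate handling and base numbering are not given in the sources used here, so positions are printed as in the files. Variant-like positions (share of at least 35% in either library) were left out of rates. Shares have Clopper-Pearson intervals, ratios exact conditional binomial intervals. Site and block tests were Fisher's exact tests with Benjamini-Hochberg adjustment over all nuclear positions or blocks. They were tested on simulated data with changes far larger than the pooled one here, so whether they find small changes was not measured. No molecular identifiers are named, and neighbouring positions share reads. The genes, their boundaries and the tests were chosen with earlier results of these data known. All 7 genes are named. Sites named are, per gene, the largest rise, largest fall and lowest p, plus those with most G reads, and others in MCM4 were chosen after their values were seen. An hg19 annotation was not used here, so exons and UTRs are not assigned and other replication genes were not counted. Scripts ran in Python 3.11.15 with scipy 1.17.1, pandas 2.3.3, numpy 2.4.6 and, for plots, matplotlib 3.10.9.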

Additional observations from a re-analysis of the deposited data

How the results depend on the processing

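No paired analysis was possible because each condition had 1 library. Variant-like positions kept, only positions listed in both libraries, at least 20 reads and 1 position of most G reads per gene left out gave pooled A-to-G ratios of 1.88, 1.88, 1.95 and 1.91. The first of these could not differ from the main ratio, since 0 member positions were variant-like. Leaving out each gene in turn, a choice made after seeing the data, gave 1.67 to 2.55. In MCM6 and PCNA positions with G reads had 1 each, so leaving out 1 there is an arbitrary choice. Without 1 position with 2 G reads over both libraries, the first of those tied, the ratio of MCM2 was 2.96 (0.913 to 12.4) and that of MCM5 2.77 (0.970 to 9.67). With at least 20 reads MCM2 had 2.64 (0.816 to 11.1), MCM4 1.26 (0.656 to 2.47), MCM5 7.93 (1.15 to 341) and MCM6 2.54 (0.252 to 125). No member position or block was called under any alternative minimum, change or gap. A change of 5 points by size alone gave 7 of 2459 member positions higher and 1 lower, against 824 and 209 of all 359090.

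Depth ratios depended on the positions used. Over all positions listed in each library they were 1.24 for MCM2, 1.13 for MCM3, 1.14 for MCM4, 1.30 for MCM5, 1.32 for MCM6, 1.35 for MCM7 and 0.985 (0.960 to 1.01) for PCNA. At positions with at least 20 reads in both they were 1.07 for MCM2, 0.960 for MCM3, 1.06 for MCM4, 1.04 (0.985 to 1.09) for MCM5, 1.09 for MCM6, 1.16 for MCM7 and 0.884 for PCNA, so that MCM3 changed direction and MCM5 here, like PCNA over all listed positions, had an interval that includes 1. The ratios divide by nuclear base reads, which also changed with the setting. These were 40037927 with ABA and 41124763 without ABA in the main setting, and 44914317 and 50748953 over all listed positions. The 7 genes together had 115021 and 107094 base reads in the main setting, and 115461 and 108400 over all listed positions. What else moved the ratios was not tested.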
